A study of Mus musculus with 12 samples.

Results

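The 6 genes described here encode proteins that hold fibroblasts to other cells. They are the immunoglobulin family members *Vcam1*, *Icam1*, *Alcam* and *Ncam1* and the cadherins *Cdh2* and *Cdh11*, taken by symbol from a table of 39179 genes. All 6 were found once in that table. They were chosen by their CPM levels in these same libraries, which were already known, so their differences between cultures are given as descriptions without p-values. Where a fit over all genes called one of them, that too describes the choice of genes, and p-values are given only for genes outside this group. RNA was measured in pancreatic stellate cells (PSCs), which resemble fibroblasts, here C57BL/6 mouse cells immortalised with SV40 and grown from 1 clone, and marked with mCherry. They were cultured for 72 h in a medium with little serum, alone (mono-PSCs), with PCCs (2W-PSCs) or with PCCs and MØs together (3W-PSCs). PCCs are a mouse pancreatic cancer cell line grown with doxycycline and marked with EGFP, and MØs are cells of the RAW264.7 mouse macrophage line marked with TagBFP. PSCs were then sorted on mCherry, leaving out cells with EGFP or TagBFP, and each of the 3 cultures gave 4 libraries, 12 in all, described as biological replicates. All cells of a comparison therefore come from 1 PSC line, and the results describe that line.

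The immunoglobulin family members are surface receptors that bind in trans to a partner on a neighbouring cell. *Vcam1* and *Icam1* are ligands of leukocyte integrins and are known for being switched on by inflammatory cytokines in endothelial cells and fibroblasts, whereas *Alcam* and *Ncam1* bind mainly to copies of themselves. Classical cadherins such as *Cdh2* (N-cadherin) and *Cdh11* (OB-cadherin) bind a cadherin of the same kind on the next cell and are anchored to actin through catenins, and both are known cadherins of fibroblasts.

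Total counts were 5286963 to 8093368 per library in mono-culture, 4561817 to 6907711 in 2W culture and 7205488 to 8061367 in 3W culture. The 3′ kit yields about 1 fragment per transcript, so counts relative to library size (CPM, scaled here by the TMM method of edgeR) can be compared between genes without a correction for length. Replicate 2 of 2W-PSCs had the lowest total and stood apart, its Spearman correlations across genes with its replicates being 0.858 to 0.92 where every other pair of replicates had 0.948 to 0.987, and differences between the co-cultures without it are given for each of the 5 genes with a fitted fold change. Of 12 markers of PSCs and fibroblasts, *Col1a1*, *Col1a2* and *Vim* were each at 1044.4 CPM or more in every library, but *Gfap* was at 0 in all 12 libraries and *Des* reached at most 3.32 CPM. The summed level of these markers was 8361 to 10576 CPM in mono-culture, 10011 to 10937 CPM in 2W culture and 5922 to 7010 CPM in 3W culture. Of 10 tested between the co-cultures, 5 were lower and 2 higher in 3W-PSCs (edgeR), among them *Acta2*, the actin of activated stellate cells, at -2.55 on the log2 scale (adjusted p = 2.69e-05, edgeR), *S100a4* at -1.59, *Col3a1* at -1.74 and *Pdgfra* at 1.26 (adjusted p = 0.000452, 0.000538 and 0.00522, edgeR). Between 2W-PSCs and mono-PSCs *Acta2* and *Dcn* were higher, by 2.16 and 0.95 on the log2 scale (adjusted p = 0.000656 and 0.0329, edgeR), and 0 were lower. *Acta2* was called there in all 8 fits that left out a library, and *Dcn* in 1 of 8, that without replicate 2 of 2W-PSCs. The part of these markers in the differences given below was not tested. Markers of the cells in co-culture moved with the cultures too. The summed level of 12 epithelial markers was 0.361 to 1.57 CPM in mono-culture, 65.3 to 113.7 CPM in 2W culture and 46.1 to 71.8 CPM in 3W culture, where keratins made up most of it and *Epcam* reached at most 0.382 CPM. The summed level of 12 macrophage markers was 9.56 to 11.8 CPM in mono-culture, 12.9 to 18.3 CPM in 2W culture and 34.02 to 72.8 CPM in 3W culture. *Emr1* was at 0 in all 12 libraries. *Ptprc* and *Laptm5* were at 0 in all libraries of mono-PSCs and 2W-PSCs, and reached 2.6 and 9.73 CPM in 3W culture. Of 5 tested between the co-cultures, 2 were called higher in 3W-PSCs and 0 lower (edgeR), where 10.7% of all genes were called. They were *Cd53* at 2.45 on the log2 scale, called in all 8 fits that left out a library, and *Cd14* at 1.37, called in 2 of 8. Markers of endothelial cells summed to at most 6.27 CPM and those of Schwann and neural crest cells to at most 19.4 CPM in any library. In bulk RNA, fewer cells of a kind and less RNA per cell cannot be told apart.

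Promoter sequences from RefSeq (GRCm38.p6) were at hand for *Icam1* and *Alcam*, and not for *Vcam1*, *Ncam1*, *Cdh2* and *Cdh11*. They are shown because *Icam1* is the cytokine-responsive adhesion gene whose counts stayed near 0 in every culture, and *Alcam* is the only other gene of the group to compare it with. Both runs are the 250 bases before the RefSeq transcription start, on the strand of the gene, at chr9:21015690-21015939 on the plus strand for *Icam1* and chr16:52453082-52453331 on the minus strand for *Alcam*. Capitals mark GGAAATTCC, the letters of an NFκB element, and a match to TTCNNNGAA, the letters bound by STAT factors.
Icam1: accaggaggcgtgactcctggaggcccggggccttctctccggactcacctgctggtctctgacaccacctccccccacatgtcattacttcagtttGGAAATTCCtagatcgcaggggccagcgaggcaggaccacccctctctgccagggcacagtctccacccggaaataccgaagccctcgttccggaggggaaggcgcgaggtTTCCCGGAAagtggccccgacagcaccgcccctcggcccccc
Alcam: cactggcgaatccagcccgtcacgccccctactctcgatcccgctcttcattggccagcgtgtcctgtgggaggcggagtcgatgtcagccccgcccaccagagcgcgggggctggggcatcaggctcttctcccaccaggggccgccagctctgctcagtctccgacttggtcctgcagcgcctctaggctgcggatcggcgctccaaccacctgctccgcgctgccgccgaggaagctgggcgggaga
In the *Icam1* window the first match begins 153 bases and the second 42 bases before the RefSeq start, which is itself 45 bases before the gene start in GENCODE. GGAAATTCC was added to the search after this sequence had been seen, so its presence is a description only, and 0.322% of 27025 promoter windows of 300 bases (250 before and 50 after the start) held it on either strand. TTCNNNGAA was held by 8.47% of them. Of the letters chosen earlier, the 10-letter NFκB consensus was found in *Icam1* 120 bases before the start and in 50.4% of all windows, and TATAAA 14 bases after the start and in 14.2%. GGGNNTTCC (5.72% of all windows) and TGANTCA (7.93%) were not found in *Icam1*, and none of the 6 patterns was found in *Alcam*. In GENCODE, *Alcam* begins at 52454074 on the minus strand, so its window lies inside the annotated gene. The bases before that start were not searched.

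On GRCm38, *Vcam1* (ENSMUSG00000027962) spans 116109949 to 116129688 of chromosome 3, minus strand. *Icam1* (ENSMUSG00000037405) spans 21015985 to 21028817 of chromosome 9, plus strand, and *Ncam1* (ENSMUSG00000039542) lies on its minus strand, from 49502136 to 49798925. *Alcam* (ENSMUSG00000022636) spans 52248996 to 52454074 of chromosome 16, *Cdh2* (ENSMUSG00000024304) 16588877 to 16809246 of chromosome 18, and *Cdh11* (ENSMUSG00000031673) 102632095 to 102785642 of chromosome 8, all on the minus strand. None of the 75-base windows in the last 500 bases of their transcripts occurs in another annotated gene. Exons of *Vcam1*, *Icam1* and *Ncam1* overlap 61, 511 and 417 bases of predicted genes on the opposite strand, and the strand setting of the counting is not given in the sources used here. The one of these genes found in the count table, the partner of *Ncam1*, had 0 counts in all 12 libraries.

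*Vcam1*, the ligand of the integrin that combines *Itga4* and *Itgb1*, was on average the most abundant of the 6 genes in each culture and, of the 5 with a fitted fold change, the one with the largest difference between co-cultures. In replicates 1 to 4 it had 108, 127, 183 and 167 CPM in mono-culture and 123, 117, 162 and 175 CPM in 2W culture. In 3W-PSCs it had 732, 725, 630 and 648 CPM. The 4 libraries of 3W-PSCs thus lay far above all 8 others, while those of mono-PSCs and 2W-PSCs were intermixed. The mean was 146 ± 34.5 CPM in mono-culture, 144 ± 28.4 CPM in 2W culture and 684 ± 52.0 CPM in 3W culture (SD, n = 4 each). The log2 fold change of 3W-PSCs was 2.24 (SE 0.183) against 2W-PSCs, a 4.74-fold difference, and 2.22 (SE 0.177) against mono-PSCs, while that of 2W-PSCs against mono-PSCs was 0.0019 (SE 0.223). Without replicate 2 of 2W-PSCs the difference between the co-cultures was 2.16. The sum of macrophage markers was also higher in each library of 3W-PSCs than in the 8 others. Without replicate 4 of 3W-PSCs, where that sum was highest, the difference was 2.27. The other 3W-PSCs still had sums of 34.02 to 39.69 CPM, against at most 18.26 CPM in mono-PSCs and 2W-PSCs. This fit therefore cannot separate these markers from the culture, and their part in the result was not tested.

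**Figure D1:**
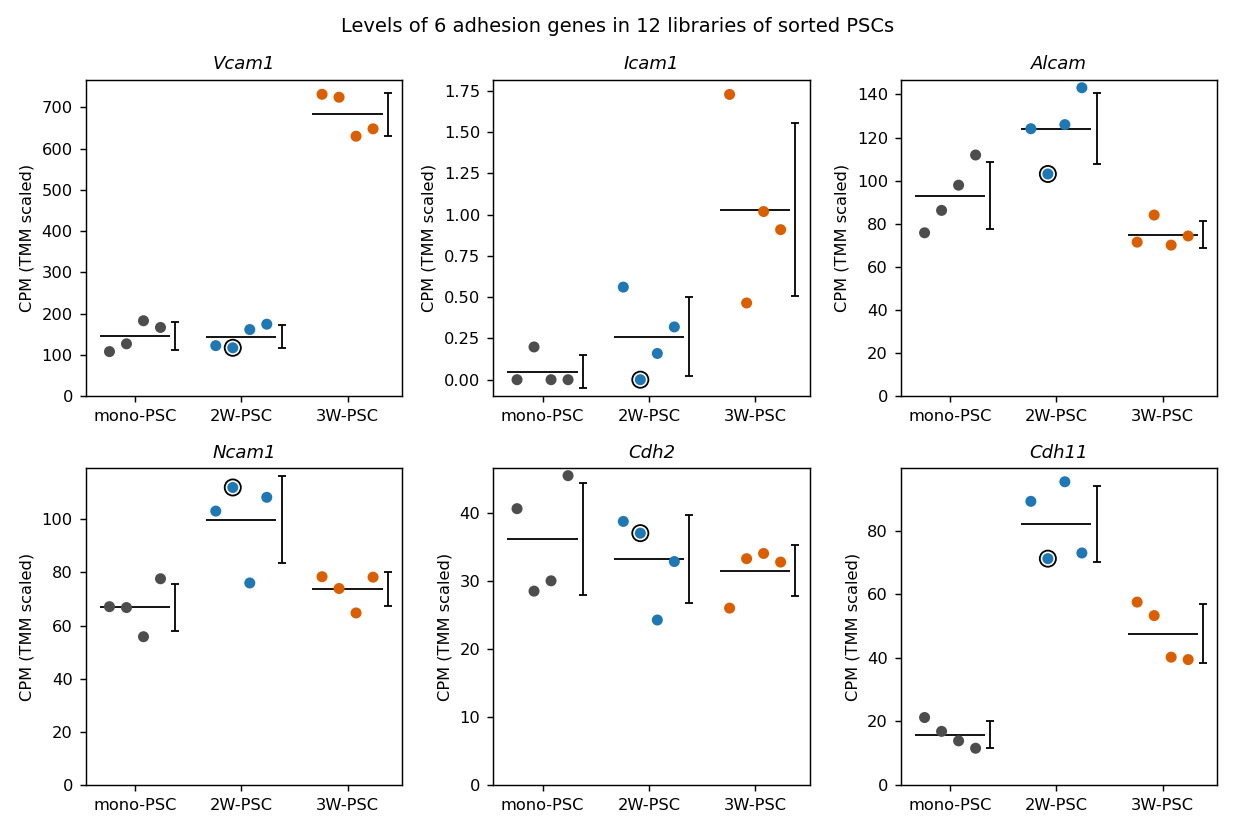
Level of each of the 6 genes in CPM (vertical axes, linear and different for each gene) in the 4 libraries of each culture, replicates 1 to 4 from left to right, with the mean as a horizontal line and the SD as a bar beside it; ringed points are replicate 2 of 2W-PSCs. *Vcam1* stands at 630 to 732 CPM in 3W culture against 108 to 183 CPM in all other libraries, *Cdh11* is highest in 2W culture, and *Icam1* stays under 2 CPM.

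*Icam1*, a ligand of the leukocyte integrins built on *Itgb2*, was barely counted in any culture. Replicates 1 to 4 had 0, 1, 0 and 0 counts in mono-culture, 4, 0, 1 and 2 counts in 2W culture and 13, 4, 8 and 7 counts in 3W culture. All libraries of 3W-PSCs had more CPM than any of mono-PSCs, and they overlapped those of 2W-PSCs. At 1.03 ± 0.523 CPM (SD, n = 4) in 3W culture its mean level was far below that of *Vcam1* in the same libraries. Summed over libraries and set against total counts, the 32 counts of 3W-PSCs were 3.64 times the 7 counts of 2W-PSCs, with a 95% interval of 1.58 to 9.76 that covers counting error only. Against the 1 count of mono-PSCs the ratio was 25.8 for 3W-PSCs (4.31 to 1050.8) and 7.10 for 2W-PSCs (0.912 to 319.8). The filter on low counts removed *Icam1* from all 3 comparisons in edgeR, so it is not among the 5 genes with a fitted fold change.

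*Alcam*, which binds itself and the lymphocyte receptor *Cd6*, was highest in 2W culture. Its level in replicates 1 to 4 was 75.8, 86.2, 97.9 and 112 CPM in mono-culture, 124, 103, 126 and 143 CPM in 2W culture and 71.5, 84.1, 70.1 and 74.3 CPM in 3W culture. Every library of 2W-PSCs exceeded every library of 3W-PSCs, the lowest being replicate 2, whereas mono-PSCs overlapped both. With means of 93.0 ± 15.5, 124 ± 16.4 and 74.99 ± 6.29 CPM (SD, n = 4 each) in that order, the log2 fold change from 2W to 3W culture was -0.73 (SE 0.155), or 1.66-fold lower, and it was -0.81 without replicate 2 of 2W-PSCs. The other differences were 0.44 (SE 0.192) for 2W-PSCs and -0.32 (SE 0.156) for 3W-PSCs, each against mono-PSCs.

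*Ncam1*, an adhesion molecule best known from neurons that also acts through the FGF receptor, was likewise highest on average in 2W culture, at smaller distances. It had 67.1, 66.8, 55.8 and 77.6 CPM in mono-culture, 103, 112, 76.0 and 108 CPM in 2W culture and 78.4, 74.0, 64.8 and 78.2 CPM in 3W culture. Replicate 3 of 2W-PSCs fell among the libraries of the other cultures, and the other 2W-PSCs lay above them. Log2 fold changes were 0.60 (SE 0.196) for 2W-PSCs against mono-PSCs, -0.44 (SE 0.167) for 3W-PSCs against 2W-PSCs and 0.14 (SE 0.155) for 3W-PSCs against mono-PSCs, and all 3 pairs of cultures overlapped. Without replicate 2 of 2W-PSCs the second was -0.38.

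Of the 5 genes with a fitted fold change, *Cdh11* had the largest difference between 2W-PSCs and mono-PSCs. In replicates 1 to 4 its level was 21.2, 16.9, 13.9 and 11.5 CPM in mono-culture, 89.3, 71.2, 95.4 and 73.0 CPM in 2W culture and 57.5, 53.3, 40.2 and 39.4 CPM in 3W culture. The cultures did not overlap in any pair, with mono-PSCs lowest, 3W-PSCs in between and 2W-PSCs highest. The log2 fold change against mono-PSCs was 2.40 (SE 0.238) in 2W culture, 5.27-fold, and 1.59 (SE 0.218) in 3W culture, and that from 2W to 3W culture was -0.79 (SE 0.187). Without replicate 2 of 2W-PSCs the first and the last were 2.45 and -0.86. The median sum of epithelial markers had the same order of the 3 cultures as *Cdh11*. In replicates 1 to 4 this sum was 89.39, 67.04, 65.25 and 113.7 CPM in 2W culture and 64.05, 50.62, 46.05 and 71.75 CPM in 3W culture. The part of these markers in the level of *Cdh11* was not tested.

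*Cdh2* was close to level across the cultures. It had 40.7, 28.5, 30.1 and 45.6 CPM in mono-culture, 38.8, 37.1, 24.3 and 32.9 CPM in 2W culture and 26.04, 33.3, 34.1 and 32.8 CPM in 3W culture, so that the libraries of all 3 cultures overlapped. Log2 fold changes were -0.11 (SE 0.236) for 2W-PSCs and -0.21 (SE 0.194) for 3W-PSCs against mono-PSCs, and -0.077 (SE 0.200) between the co-cultures (-0.025 without replicate 2 of 2W-PSCs), each within about 1 SE of 0.

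Taken per library, the balance of the 2 cadherins differed between culture alone and co-culture. *Cdh2* made up 65.7%, 62.9%, 68.4% and 79.8% of the summed CPM of *Cdh2* and *Cdh11* in mono-culture. It made up 30.3%, 34.2%, 20.3% and 31.1% in 2W culture and 31.2%, 38.5%, 45.9% and 45.4% in 3W culture. *Cdh2* was therefore the more abundant cadherin in every mono-PSC library and *Cdh11* in every library of both co-cultures. The summed level of both was 52.1 ± 8.81 CPM in mono-culture, 115.5 ± 10.3 CPM in 2W culture and 79.2 ± 6.98 CPM in 3W culture (SD, n = 4 each).

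**Figure D2:**
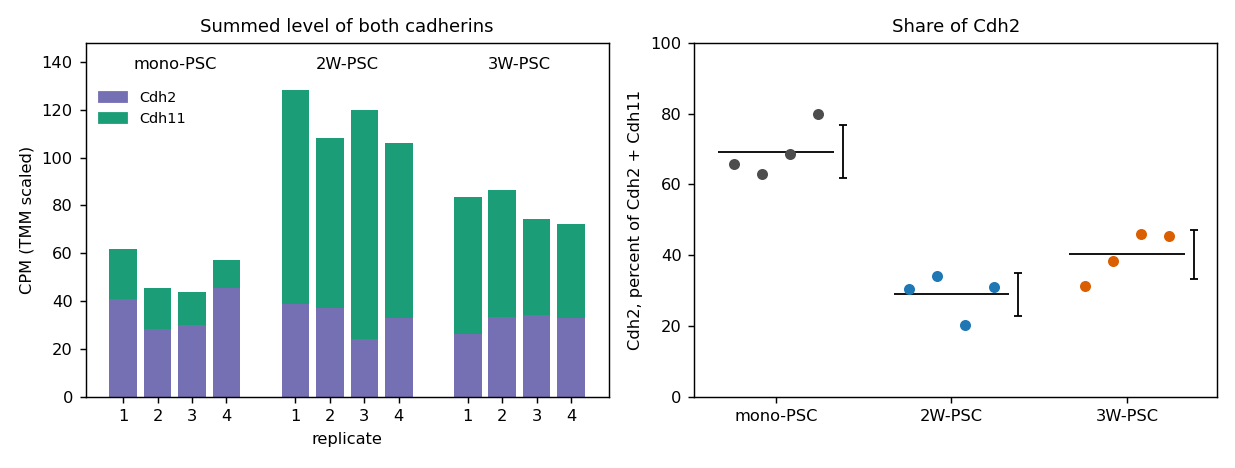
Left, level of *Cdh2* and *Cdh11* in CPM stacked for each library (bars from 0, replicates 1 to 4 in each culture). Right, *Cdh2* as a percent of both in each library, with the mean as a line and the SD as a bar; all mono-PSC libraries are at 62.9% or more and all co-culture libraries at 45.9% or less.

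The order of the 6 levels differed between the cultures. *Vcam1* led in each culture, but its libraries overlapped those of *Alcam* in mono- and 2W culture and were separate from them in 3W culture, where *Vcam1* made up 74.9% ± 0.628 of the summed CPM of the 6 genes (40.5% ± 5.62 in mono-culture and 29.6% ± 4.06 in 2W culture, SD, n = 4 each). *Alcam* came next and overlapped with *Ncam1* in each culture. Below them *Cdh2* came before *Cdh11* in mono-culture, while *Cdh11* came before *Cdh2* in both co-cultures and reached into the range of *Ncam1* in 2W culture. *Icam1* was last in each, apart from all others. The 6 genes together summed to 358 ± 47.0 CPM in mono-culture, 484 ± 37.5 CPM in 2W culture and 913 ± 65.7 CPM in 3W culture (SD, n = 4 each).

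In edgeR's quasi-likelihood test over all genes, where a gene is called at a Benjamini-Hochberg adjusted p under 0.05, the counts of members called are read beside the share of all genes called and describe the choice of genes. Between 3W-PSCs and 2W-PSCs, 3 of the 5 fitted genes were called, *Vcam1* higher and *Alcam* and *Cdh11* lower, where 10.7% of 11513 genes were called, and the same 3 did not overlap, as was so for 21.3% of all genes. Between 2W-PSCs and mono-PSCs, *Cdh11* alone was called, where 0.991% of 11199 genes were called, and it alone did not overlap, as did 5.75% of all genes. Between 3W-PSCs and mono-PSCs, *Vcam1* and *Cdh11* were called, both higher, where 26.4% of 11551 genes were called, and both did not overlap, as did 26% of all genes. Since these libraries served to choose the genes, nothing is read from the counts. The median log2 fold change of the 5 was -0.44, 0.44 and 0.14 in these comparisons, beside 0.0025, 0.020 and 0.012 over all genes tested. The comparisons share libraries, so that they are not independent of each other.

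**Figure D3:**
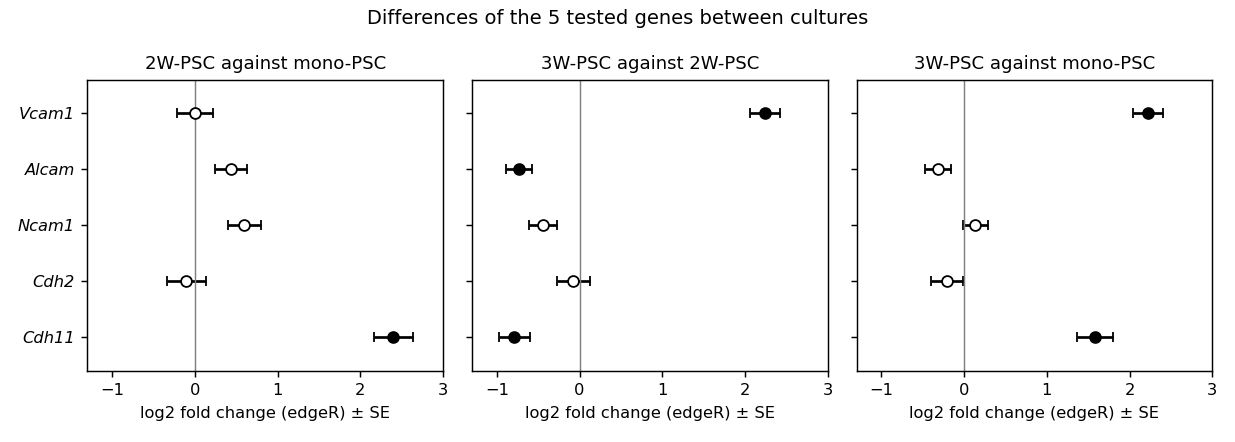
Log2 fold change (horizontal axis) of the 5 genes with enough counts in the 3 comparisons of cultures, with bars of 1 SE; filled points were called over all genes in edgeR and open points were not. *Cdh11* stands at 2.40 in 2W culture against mono-PSCs and *Vcam1* at 2.24 in 3W culture against 2W-PSCs, while *Cdh2* lies near 0 in each.

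The calls of the 5 genes in fits that left out a library describe the weight of single libraries and give no support to a difference. *Vcam1* in both comparisons of 3W-PSCs and *Cdh11* in both comparisons with mono-PSCs were called in all 8 fits that each left out a library. Between the co-cultures, *Cdh11* was called in 4 of 8, with log2 fold changes of -0.76 without replicate 1 of 2W-PSCs, and -0.85, -0.72 and -0.71 without replicates 2, 3 and 4 of 3W-PSCs, where the call was lost. *Alcam* was called in 6 of 8 and lost its call without replicates 1 and 4 of 3W-PSCs, at -0.71 and -0.72. *Ncam1* was called lower in 3W culture than in 2W culture only without replicate 3 of 2W-PSCs, at -0.55, and *Alcam* lower in 3W culture than in mono-culture only without replicate 1 of mono-PSCs, at -0.41.

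Of the binding partners of the immunoglobulin members, the integrin chain that fibroblasts also use was abundant and the leukocyte chains were near 0. In each list of genes, the counts called stand beside the shares of all genes called by edgeR. These were 10.7% between the co-cultures, 0.991% between 2W-PSCs and mono-PSCs and 26.4% between 3W-PSCs and mono-PSCs. Among 10 leukocyte integrin chains and counter-receptors, 3 were tested between the co-cultures and 0 were called by edgeR (1 at an unadjusted p under 0.05, and 1, *Itgb1*, by DESeq2), and against mono-PSCs 0 were called in either co-culture by edgeR or DESeq2, with 0 in 2W culture and 1 in 3W culture at an unadjusted p under 0.05. *Itgb1*, a chain of the *Vcam1* receptor and of matrix receptors, had 758 ± 135 CPM in mono-culture, 829.9 ± 92.0 CPM in 2W culture and 600.5 ± 18.5 CPM in 3W culture (SD, n = 4 each), and it differed by -0.47 on the log2 scale between the co-cultures (adjusted p = 0.0718, edgeR). The leukocyte chains *Itga4*, *Itgal*, *Itgam* and *Itgb2* had at most 4, 6, 8 and 29 counts in any library, each in 3W culture, and were not tested. *Itgb2* averaged 0.69, 0.433 and 2.39 CPM in mono-, 2W and 3W culture. The part of macrophages in these counts was not tested.

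Of 31 further immunoglobulin adhesion genes, 14 were tested between 3W-PSCs and 2W-PSCs, and 2 were called higher and 3 lower by edgeR, with a median log2 fold change of 0.21 beside 0.0025 over all genes. *F11r*, which encodes a junctional adhesion molecule, fell from 214 ± 29.6 to 108 ± 17.4 CPM (SD, n = 4 each; log2 fold change -0.99, SE 0.175, adjusted p = 0.00549, edgeR). *Mcam*, a marker of pericytes and endothelial cells, fell from 10.9 ± 3.38 to 2.91 ± 0.968 CPM (adjusted p = 0.00701, edgeR). Both were called in all 8 fits that left out a library. *Thy1*, a surface protein of fibroblasts, fell by 0.67 on the log2 scale (adjusted p = 0.0297, edgeR) and was called in 3 of 8 such fits, losing the call without replicates 1 and 4 of 2W-PSCs and without replicates 1, 2 and 3 of 3W-PSCs. *Pvrl1* (nectin-1) rose by 1.91 on the log2 scale (adjusted p = 0.0270, edgeR), and was called in 2 of 8, those without replicates 2 and 3 of 2W-PSCs. Between 2W-PSCs and mono-PSCs 1 of 15 was called, *Cadm1*, with at most 2 counts per library in mono-culture and 4.91 ± 2.44 CPM in 2W culture (adjusted p = 0.00931, edgeR). This call was lost without replicate 3 or 4 of mono-PSCs and without replicate 4 of 2W-PSCs. Between 3W-PSCs and mono-PSCs 3 of 15 were called higher and 3 lower, among them *Cd47*, the signal by which cells restrain phagocytes, at 297 ± 32.4 against 129 ± 20.1 CPM (log2 fold change 1.199, adjusted p = 2.29e-05, edgeR), and *Thy1* and *F11r*, which were lower by 0.996 and 1.09 on the log2 scale.

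Of 34 further cadherins, 12 were tested between the co-cultures, and 2 were called higher and 2 lower by edgeR, with a median log2 fold change of -0.076. *Fat1*, a giant cadherin without a catenin-binding tail of the classical kind, rose from 11.97 ± 6.65 to 44.8 ± 5.90 CPM (SD, n = 4 each; log2 fold change 1.88, SE 0.355, adjusted p = 0.00746, edgeR) and was called in all 8 fits that left out a library. *Pcdh18* fell by 0.87 on the log2 scale (adjusted p = 0.0165, edgeR) and lost its call without replicate 4 of 2W-PSCs and replicates 1 and 2 of 3W-PSCs. *Cdh26* was called at -1.68, but not without replicate 4 of 2W-PSCs or replicates 1, 2 and 3 of 3W-PSCs. *Pcdh19* was called at 0.54, and among the fits that left out a library only without replicate 1 or 2 of 2W-PSCs. Between 2W-PSCs and mono-PSCs 1 of 10 tested cadherins was called. It was *Cdh1*, the E-cadherin of epithelial cells, with 18.4 ± 10.7 CPM in 2W culture and 0.585 ± 0.413 CPM in mono-culture (adjusted p = 0.000877, edgeR). Keratins moved with it. *Krt18* had at most 1 count per library in mono-culture and 37.3 ± 10.5 CPM in 2W culture (adjusted p = 7.61e-06, edgeR), and the part of epithelial cells in the level of *Cdh1* was not tested. In 3W-PSCs, 7 of 12 tested cadherins were called higher than in mono-culture and 1 lower, where 26.4% of all genes were called. *Pcdh7* had 77.6 ± 9.39 against 30.02 ± 4.27 CPM (log2 fold change 1.36, adjusted p = 1.08e-05, edgeR), and *Cdh17*, an epithelial cadherin, had 0 counts in mono-culture and 4.27 ± 1.14 CPM in 3W culture.

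On the inner side of the junction stand catenins and linkers to actin. Of 13 catenin and adherens junction genes tested between the co-cultures, 0 were called by edgeR (1 at an unadjusted p under 0.05, and 1, *Ctnnd1*, by DESeq2), with a median log2 fold change of 0.12. Between 2W-PSCs and mono-PSCs 0 of 13 were called by edgeR, 1 at an unadjusted p under 0.05, and 0 by DESeq2. With 0.991% of all genes called by edgeR in that comparison, a count of 0 says little about this list. Between the co-cultures, where edgeR called 10.7% of all genes, 0 of 13 says little too. The catenin that binds the tail of cadherins, *Ctnnb1*, had 345 ± 35.3 CPM in mono-culture, 321 ± 90.9 CPM in 2W culture and 394 ± 3.30 CPM in 3W culture, and its link to actin, *Ctnna1*, had 251 ± 27.5, 213 ± 17.9 and 231 ± 29.1 CPM (SD, n = 4 each). The p120 catenin *Ctnnd1* varied most, with 32.8 ± 24.5 CPM in 2W culture and 79.8 ± 17.9 CPM in 3W culture (adjusted p = 0.0747, edgeR). Against mono-PSCs *Ctnnd1*, *Tjp1* and *Cttn* were called higher in 3W culture, at log2 fold changes of 1.56, 1.06 and 0.83 (adjusted p = 0.0202, 0.0151 and 0.0197, edgeR). *Tjp1* was called in all 8 fits that left out a library, while *Ctnnd1* and *Cttn* lost their calls without replicates 2, 3 and 4 of mono-PSCs and without replicate 3 and replicate 2 of 3W-PSCs, respectively. Among the 11 tested linkers of adhesion receptors to actin, *Actn1* (α-actinin 1) rose by 0.89 on the log2 scale between the co-cultures (adjusted p = 0.0195, edgeR), losing its call without replicate 4 of 2W-PSCs and replicates 1, 2 and 3 of 3W-PSCs. *Itgb1bp1* fell by 0.62 on the log2 scale (adjusted p = 0.0452, edgeR), a call that, of the fits leaving out a library, only that without replicate 2 of 2W-PSCs kept. *Ezr* (ezrin), which ties *Icam1* and other tails to actin, was the one linker called between 2W-PSCs and mono-PSCs, at 71.3 ± 19.0 against 32.3 ± 5.47 CPM (adjusted p = 0.0356, edgeR), a call kept only without replicate 2 or 3 of 2W-PSCs.

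Several of these molecules are cut from the surface by proteases. Of 11 genes of shedding tested between the co-cultures, *Adam17*, which cuts *Vcam1*, *Icam1* and *Alcam*, rose from 40.1 ± 8.26 to 77.8 ± 4.32 CPM (log2 fold change 0.95, SE 0.179, adjusted p = 0.00724, edgeR), in all 8 fits that left out a library. *Adam19* rose by 1.37 (adjusted p = 0.0119, edgeR), in all fits but that without replicate 2 of 3W-PSCs. *Timp3*, an inhibitor of *Adam17* and so the one member of this list that restrains shedding, fell from 999 ± 309.6 to 460.1 ± 93.3 CPM (log2 fold change -1.12, adjusted p = 0.0131, edgeR), and lost its call without replicates 1 and 2 of 3W-PSCs. The other 8 were not called, *Adam10*, the main protease for *Cdh2*, being at a log2 fold change of 0.19. Against mono-PSCs the same 3 genes were called in 3W culture in the same directions, together with *Adam12*. In 2W culture 0 of 9 were called by edgeR or DESeq2, with 0 at an unadjusted p under 0.05, where edgeR called 0.991% of all genes.

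Of the 11 enzymes and partners of *Ncam1*, the polysialic acid transferases *St8sia2* and *St8sia4* were not counted enough to be tested, and 4 of 8 tested genes were called higher and 2 lower between the co-cultures. *Fgfr1*, the receptor through which *Ncam1* signals, rose from 60.4 ± 9.76 to 149 ± 31.6 CPM (log2 fold change 1.30, adjusted p = 0.00206, edgeR). *Gfra1*, a GDNF receptor that uses *Ncam1* as a partner, rose from 2.20 ± 1.14 to 9.90 ± 2.33 CPM (adjusted p = 0.00940, edgeR). *Ptn* (pleiotrophin), a secreted growth factor, fell from 1368 ± 297 to 102 ± 23.5 CPM (log2 fold change -3.74, SE 0.242, adjusted p = 1.62e-05, edgeR), and *Prnp*, the prion protein, which associates with *Ncam1*, fell by 0.79 on the log2 scale (adjusted p = 0.00733, edgeR). These 4 were called in all 8 fits that left out a library. *Ncam1* itself differed by -0.44 between the same cultures, as given above.

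A last list held 20 receptors and factors known to act on *Vcam1* and *Icam1*, of which 12 were called higher in 3W over 2W culture and 0 lower (edgeR), with a median log2 fold change of 0.84 beside 0.0025 over all genes. The list was drawn up with results of these libraries known, and its count is no independent evidence of direction. *Osmr*, the oncostatin M receptor, and *Stat3* rose by 2.92 and 1.78 on the log2 scale (adjusted p = 0.000144 and 0.000271, edgeR). *Cebpb* and the NFκB subunit *Nfkb2* rose by 1.54 and 1.25 (adjusted p = 0.000552 and 0.00153, edgeR). All 4 were called in every fit that left out a library. Between 2W-PSCs and mono-PSCs, where *Vcam1* differed by 0.0019, 2 of 20 were called, *Tnfrsf1b* at 1.25 and *Il4ra* at 2.06 (adjusted p = 0.0143 and 0.00834, edgeR). *Il4ra* lost its call without replicate 3 of mono-PSCs, and *Tnfrsf1b* without replicates 2, 3 and 4 of mono-PSCs and 1 and 4 of 2W-PSCs. Between 3W-PSCs and mono-PSCs 16 of 20 were called higher and 0 lower, with a median of 1.33, where 26.4% of all genes were called.

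**Figure D4:**
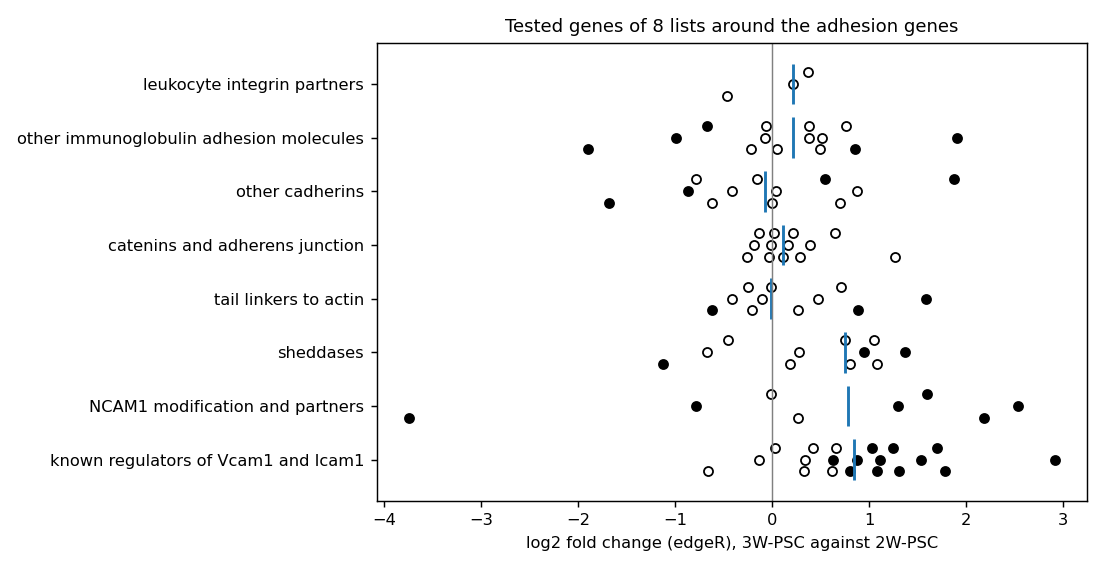
Log2 fold change from 2W to 3W culture (horizontal axis) for the tested genes of 8 lists, with 1 point per gene, filled where edgeR called the gene, and the median of each list as a blue line. The regulators of *Vcam1* and *Icam1*, a list drawn up with results of these libraries known, hold 12 filled points, all above 0. The catenins hold 0, where edgeR called 10.7% of all genes.

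To show which genes moved most like each member, log2 CPM was centred on its mean over the 12 libraries and the root mean square difference from each of 9737 genes with a mean of at least 5 CPM was taken. The pattern of *Vcam1*, with an own spread of 1.09 on the log2 scale, was nearest to that of *Cp* (0.22), *Sod3* (0.23) and *Ifit1* (0.35). *Cp*, which encodes the copper carrier ceruloplasmin, had 19.0, 25.8 and 109.7 CPM in mono-, 2W and 3W culture, *Sod3*, an extracellular superoxide dismutase, had 13.4, 10.4 and 54.7 CPM, and *Ifit1*, an interferon-induced gene, 84.3, 118.5 and 339 CPM. *Cdh11* (own spread 1.02) was nearest to *Prkg2* (0.34), which encodes a cGMP-dependent kinase and had 105, 379 and 336 CPM, and to *Camk2n1* (0.43) and *Pla2g7* (0.48). *Alcam* (own spread 0.34) was nearest to *Itgb1* (0.15), at 758, 829.9 and 600.5 CPM, and to *Pcnxl4* (0.18) and *Rpa1* (0.19). For *Ncam1* these were *Cdk14*, *Zfp703* and *Rps6kb1* (0.17 each), against an own spread of 0.30, and for *Cdh2*, with an own spread of 0.25, *Hs6st1*, *Ap5z1* and *Pdzd8* (0.13 to 0.14). The points share the libraries and their scaling, and no test was made of the likeness.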

How the data were processed

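The 12 libraries were of polyadenylated RNA from sorted PSCs, made with the QuantSeq 3′ FWD kit and read from 1 end. The authors ran FastQC on the reads, trimmed bases, aligned to GRCm38 with STAR and obtained counts for Ensembl genes from featureCounts. The deposited values are whole-number counts that were not normalised, which the methods call normalised. Molecular identifiers are not named, so PCR copies count as reads and intervals cover counting error only.

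From these counts, pairs of cultures were compared in R 4.3.3 with edgeR 4.0.16 (TMM scaling, filterByExpr, glmQLFit and glmQLFTest on 8 libraries, Benjamini-Hochberg adjustment over all genes tested, calls at an adjusted p under 0.05). Levels are CPM with TMM scaling over 12 libraries. The script was tested on simulated data first. Intervals for *Icam1* are exact conditional intervals at 95%.

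The 6 members and the 13 lists of 200 further genes were chosen with earlier results of these data known. Named from each list were the 4 called genes with the smallest p, the direct binding partners and the 3 genes nearest to each member of at least 5 CPM. Marker genes, *Adam10*, *St8sia2* and *St8sia4* were named after their values were seen. Some items are not reported here. Positions are from GENCODE on GRCm38, the build of the files. Alternatives were DESeq2's size factors, no filter, at least 10 counts in every library, 1 fit of 12 libraries, a block for the replicate number, fits without 1 library, and DESeq2 1.42.0 with its Wald test. Every table column belonged to a sample. Replicates are described as biological, and p-values measure the spread between these libraries of 1 PSC line.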

Additional observations from a re-analysis of the deposited data

Results flagged for a closer look

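In 21 groups of 4 libraries (the levels of 6 genes and the share of *Cdh2* in 3 cultures) the highest or lowest library was tested for standing apart, and 2 were past the 95% limit of Dixon's ratio. Chance alone flags about 1 in 20. *Cdh2* in 3W-PSCs had a ratio of 0.842, with replicate 1 at 26.04 CPM below the other 3W-PSCs at 32.8 to 34.1 CPM. *Icam1* in mono-PSCs had a ratio of 1, which comes from a single count in replicate 2 beside 0 counts in the others.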

How the results depend on the processing

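Of the log2 fold changes of the 5 fitted genes, 190 alternative values kept their direction and their side of the threshold, 6 lost a call and 2 gained one (all with a library left out, as given above), and 12 changed sign. Of 90 mean levels and 15 shares of *Cdh2*, 0 moved by as much as the SD of the replicates. Leaving out 1 library of a culture cannot move a mean that far, and size factors cancel in a share. This outcome was therefore fixed in advance, except for mean levels with DESeq2 size factors, and nothing is read from it. The values that changed sign were of *Vcam1* and *Cdh2*. For *Vcam1* in 2W-PSCs against mono-PSCs they were -0.0033 with DESeq2 size factors, -0.028 without a filter, -0.0090 with at least 10 counts, -0.021 in 1 fit of 12 libraries, -0.0054 with DESeq2, and -0.13, -0.082, -0.064 and -0.11 without replicates 1 and 2 of mono-PSCs and replicates 3 and 4 of 2W-PSCs, in a range of -0.13 to 0.12 over the libraries left out. For *Cdh2* they were 0.0065 without replicate 1 of 3W-PSCs between the co-cultures (range -0.21 to 0.0065), and 0.019 and 0.015 without replicate 4 of mono-PSCs and replicate 3 of 2W-PSCs in 2W-PSCs against mono-PSCs (range -0.22 to 0.019). Without a filter, edgeR tested *Icam1* and called it in 3W-PSCs against mono-PSCs at a log2 fold change of 4.12, as did DESeq2 at 4.35, from 1 count in mono-PSCs. Against 2W-PSCs neither called it.

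The number of genes called moved more. With each library left out, it was 497 to 2107 between the co-cultures (1230 with all), 61 to 233 in 2W-PSCs against mono-PSCs (111) and 2228 to 4266 in 3W-PSCs against mono-PSCs (3054). Between the co-cultures it was lowest without replicate 2 of 3W-PSCs and highest without replicate 2 of 2W-PSCs. In 2W-PSCs against mono-PSCs it was 177 without a filter, 57 with at least 10 counts, 262 in 1 fit of 12 libraries and 277 in DESeq2. Of the list genes, 21 to 59 were called between the co-cultures (44 with all), of which 20 were called in all 8 fits, and 7 to 15 in 2W-PSCs against mono-PSCs (12), where at least 10 counts in every library left 5. Of the 5 members, 1 to 4 were called between the co-cultures (3 with all). The causes were not tested.

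Deviations from the culture means were correlated between libraries with the same number. The correlations were -0.048 to 0.155 between the co-cultures, and 0.099 to 0.338 (2W-PSCs) and 0.003 to 0.107 (3W-PSCs) with mono-PSCs. Between libraries with different numbers they were -0.167 to 0.108, -0.265 to 0.215 and -0.124 to 0.072, in the same order. Same-number correlations with mono-PSCs were thus all above 0. The main fits did not take the numbers as pairing, and whether they mark pairs was not settled. With the replicate block, 752 genes were called between the co-cultures, 31 of the list genes were, and the calls of all 5 members were the same in the 3 comparisons. Some calls of named list genes were lost in settings that left out no library. Between the co-cultures *Pvrl1* was called in 4 of 5 such settings that tested it, *Thy1* in 5 of 6, *Pcdh19* in 3 of 6 and *Itgb1bp1* in 2 of 6, and between 3W-PSCs and mono-PSCs *Ctnnd1* in 4 of 6 and *Cttn* in 5 of 6. Depth limits *Icam1*, with at most 13 counts in a library, to the wide intervals given above.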
